A study of Mus musculus with 4 samples.

Results

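Inflammasomes are cytosolic protein assemblies that start IL-1 family signaling and pyroptosis, a lytic form of cell death. A sensor of the NLR family or the DNA sensor AIM2 recruits the adaptor ASC and the protease caspase-1, which matures IL-1β and IL-18 and cleaves gasdermin D into a pore, while caspase-11 responds directly to bacterial lipopolysaccharide in the cytosol. In adipose tissue (AT), macrophages are a known source of inflammasome activity, which is set by cleavage and assembly as well as by the amount of each transcript, so mRNA levels describe the supply of components and not their activation. The genes followed here were the sensors Nlrp3, Nlrp1b, Nlrc4 and Aim2, the adaptor gene Pycard, the caspase genes Casp1 and Casp4, the pore gene Gsdmd, the cytokine gene Il18 and the antagonist gene Il1rn. They were chosen by name, and all 10 were listed among the 35869 genes of each file.

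RNA-seq was carried out on CD45+ cells, isolated with CD45 microbeads from the stromal vascular cells of epididymal white adipose tissue (eWAT) of male WT C57BL/6 mice. From 8 weeks of age, the mice received a normal diet (ND, 10% of calories from fat) or a high-fat diet (HFD, 60% of calories from fat) for 12 weeks, with 2 samples per diet, and the comparison asks how gene expression in AT immune cells differs after HFD. No genetic change or drug was part of either group, and the sources used here do not give the number of mice behind each sample, so p-values measure only the spread between these samples, which may be technical. Values are TPM, which divide the reads of a gene by its length and scale each library to the same total, and changes are differences of log2(TPM + 1), HFD minus ND, which understate the ratio of genes with low TPM. A gene was taken as differentially expressed (DEG) where its Benjamini-Hochberg adjusted p-value in limma was under 0.05 and it differed at least 1.5-fold, over the 16849 genes with at least 1 TPM in at least 2 samples, and all 10 components passed this filter.

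The libraries held approximately 37500000 to 46800000 counted reads, as estimated from the steps in the values of short microRNA genes. Ptprc, the gene of CD45, was at 53.7 to 59.4 TPM in the 4 samples. HFD replicate 1 stood apart in the markers of spermatids, with 7245 TPM over 8 genes against 1911 to 2190 TPM in the other samples. Over 7 fibroblast markers, the ND samples held 594 and 638 TPM, HFD replicate 1 held 3032 TPM and HFD replicate 2 held 6064 TPM. All 10 markers of lipid-associated macrophages were higher in HFD (median log2 change 2.77) and all 8 markers of resident macrophages were lower (-2.56). All tested markers of T cells (6), NK cells (6), B cells (6) and mast cells (6) were lower in HFD, with median log2 changes from -2.20 to -1.75. Among the B cell markers, Pax5 met the filter on low values through ND only, so that only a fall could be called. Of 10 general macrophage markers, 2 were higher, 1 was lower and 7 were not DEGs, and no marker of any list was at 0 in every sample. Of 8 monocyte markers, 4 fell and 4 were not DEGs, with sums of 735 and 743 TPM in ND and of 420 and 489 TPM in HFD. Of 7 tested neutrophil markers, 5 fell and 2 were not DEGs, with sums over the whole list of 74.6 and 98.2 TPM in ND and of 31.6 and 34.0 TPM in HFD. Among the 5, Cxcr2 was at 1.4 and 1.3 TPM in ND and at 0.4 and 0.5 TPM in HFD. It met the filter on low values through ND only, so that a fall was the only change that could be called. Ly6g was listed at 0.1 TPM in ND replicate 2 and at 0 in the others. In bulk RNA, fewer cells of a type and less RNA per cell cannot be told apart, and the part of these shifts in the results on the inflammasome genes was not tested.

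The components that passed the test went in opposite directions. Il1rn rose 2.11-fold in mean TPM and Il18 fell, with an ND mean 1.69 times the HFD mean, while the other 8 components did not pass both thresholds. The genes of IL-1α and IL-1β belong to the wider list given after the components and were not DEGs. For Il1b both HFD values lay above both ND values (log2 change 0.26, adjusted p = 0.125 in limma). For Il1a the diets overlapped (log2 change -0.27, adjusted p = 0.386 in limma). Among the other 8 components, Casp1 was higher and Casp4 and Nlrp1b were lower with adjusted p-values under 0.05. Their changes were under 1.5-fold on the scale of TPM + 1, while in mean TPM the ND level of Nlrp1b was 1.53 times its HFD level. The count of DEGs, 2 of 10, lay near the 18.4% of all genes tested, with 1 higher against 8.08% of all genes and 1 lower against 10.3%. Adjusted p-values under 0.05 with a change of any size were reached by 5 of the 10 components and by 27.3% of all genes. Such p-values with changes under 1.5-fold on the scale of TPM + 1 were reached by 3 components and by 8.93% of all genes. Both HFD values lay above both ND values for 3 components (34.1% of all genes) and below them for 6 (32.8%), so that the diets did not overlap in 9 of 10 (66.9% of all genes) and overlapped for Nlrc4. The median log2 change of the 10 was -0.19, against 0.06 over all genes tested. With 2 samples per diet, the smallest p of an exact two-sided permutation test is 0.333, which each of the 9 components without overlap reached.

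**Figure D1:**
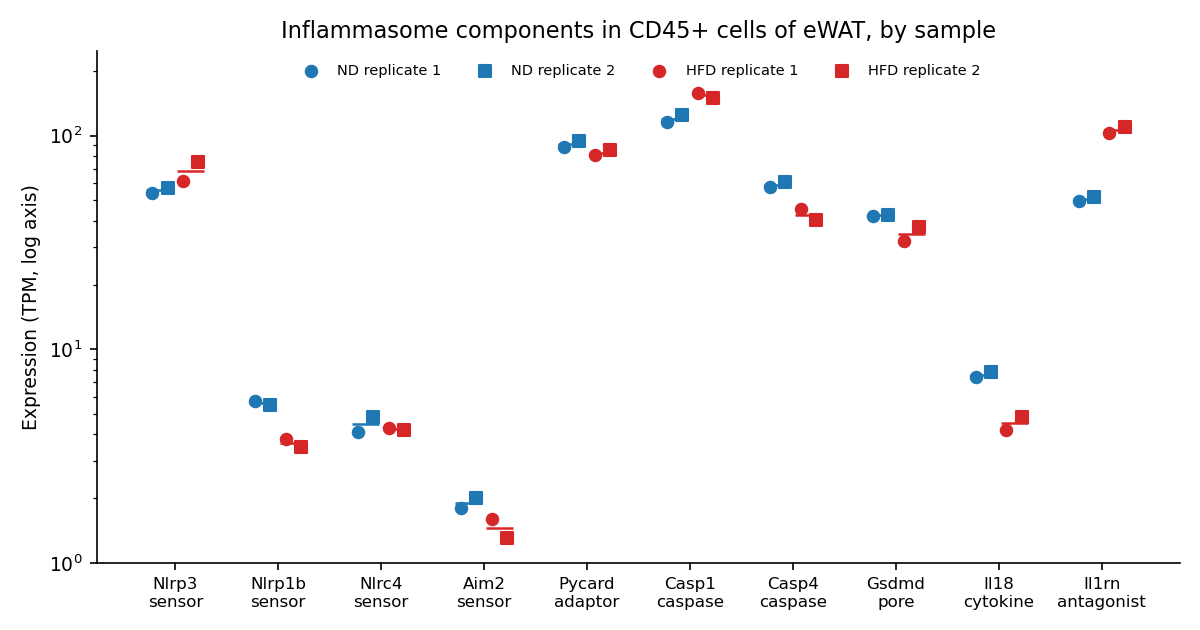
Expression of the 10 inflammasome components in TPM on a log axis, with a point for each ND sample (blue) and HFD sample (red) and a line for each mean (n = 2). Casp1, Pycard, Nlrp3 and Il1rn are among the 6 components above 30 TPM in every sample, and Nlrp1b, Nlrc4, Aim2 and Il18 lie under 8 TPM in every sample.

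**Figure D2:**
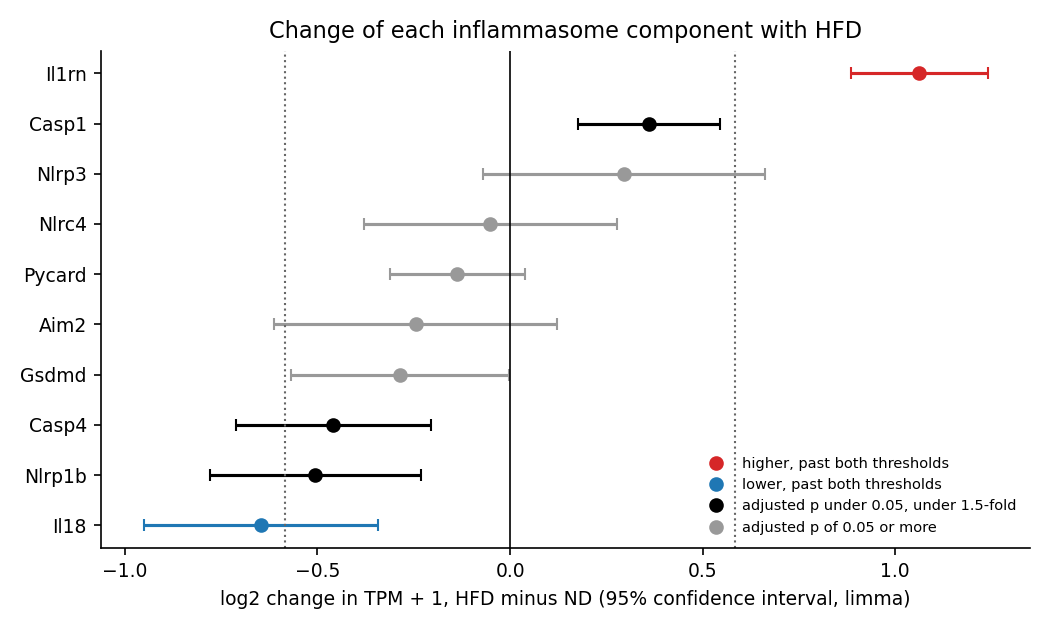
Log2 change of each component, HFD minus ND, with its 95% confidence interval from limma, and dotted lines at a change of 1.5-fold. Il1rn (1.06) and Il18 (-0.65) lie past both thresholds, and Casp1, Casp4 and Nlrp1b have adjusted p-values under 0.05 but lie inside the dotted lines.

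The promoters of 4 components are shown because these genes differed in opposite directions between the diets, Il1rn against Il18 and Casp1 against its neighbor Casp4. Each sequence holds the 250 bases before a RefSeq start site in GRCm38.p6 (the assembly called mm10), and capitals mark matches on either strand to 6 motifs, which were kappa B (GGG and TTTCC, 2 bases apart), AP-1 (TGANTCA), PU.1 (GAGGAA), the TATA box (TATAAA), the interferon response element ISRE (GAAA and GAAA, 2 bases apart) and the STAT element GAS (TTCNNNGAA).
Il1rn, chr2:24336610-24336859, plus strand: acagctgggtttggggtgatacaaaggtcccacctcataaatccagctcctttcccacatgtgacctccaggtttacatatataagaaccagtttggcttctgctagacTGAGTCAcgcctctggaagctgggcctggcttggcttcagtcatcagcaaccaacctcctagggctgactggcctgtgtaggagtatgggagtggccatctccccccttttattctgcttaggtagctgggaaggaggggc
Il1rn, chr2:24345121-24345370, plus strand: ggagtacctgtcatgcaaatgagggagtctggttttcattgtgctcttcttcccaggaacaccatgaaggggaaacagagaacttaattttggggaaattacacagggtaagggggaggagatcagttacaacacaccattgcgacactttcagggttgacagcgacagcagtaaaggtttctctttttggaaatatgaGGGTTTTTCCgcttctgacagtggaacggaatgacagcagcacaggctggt
Il18, chr9:50554450-50554699, plus strand: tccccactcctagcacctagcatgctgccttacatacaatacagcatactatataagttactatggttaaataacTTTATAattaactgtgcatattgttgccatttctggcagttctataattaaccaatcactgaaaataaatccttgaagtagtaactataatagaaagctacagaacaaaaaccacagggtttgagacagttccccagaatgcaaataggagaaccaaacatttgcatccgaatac
Casp1, chr9:5298267-5298516, plus strand: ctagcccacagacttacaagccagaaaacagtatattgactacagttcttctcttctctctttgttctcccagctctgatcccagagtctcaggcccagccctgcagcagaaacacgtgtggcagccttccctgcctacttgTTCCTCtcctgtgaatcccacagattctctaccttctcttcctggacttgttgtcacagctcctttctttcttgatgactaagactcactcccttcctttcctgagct
Casp4, chr9:5308599-5308848, plus strand: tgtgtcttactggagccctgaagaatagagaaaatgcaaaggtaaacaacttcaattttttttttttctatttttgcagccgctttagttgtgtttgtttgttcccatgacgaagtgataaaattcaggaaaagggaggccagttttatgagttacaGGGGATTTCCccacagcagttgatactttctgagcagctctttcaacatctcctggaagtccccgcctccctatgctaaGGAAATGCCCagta

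The upstream start site of Il1rn had an AP-1 match that begins 141 bases before it, a motif in 6.75% of the 32851 promoter windows of the same length. Of the downstream start sites of Il1rn, the last had a kappa B match 51 bases before it, while the window of the other, which overlaps it and is not shown, held no match to the 6 motifs, and Casp4 had a kappa B match 93 bases and another, on the other strand, 14 bases before its start. The RefSeq table has another Casp4 start in an overlapping window, not shown, from which the same matches lie 104 and 25 bases upstream. Kappa B matches were present in 1.41% of all windows, and among the 9 components with a promoter in the RefSeq table (Gsdmd was not matched) they were found only at Il1rn, which was higher in HFD, and Casp4, which was lower. Casp1 held a PU.1 match, a motif in 23.3% of windows that 5 of the components had, and Il18 held a TATA box match on the other strand 175 bases before its start (12.4% of windows). These shares are per window, while the counts are per component, with 14 windows over the 9 components, so their units differ. Neither ISRE (2.98%) nor GAS (7.02%) matched in these windows. A match is a description of letters and was not tested as a binding site.

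Il1rn encodes the IL-1 receptor antagonist, which occupies the receptor for IL-1 without signaling, and it lies on chromosome 2 (24336860 to 24351491, plus strand). It was at 49.4 and 51.6 TPM in ND and at 103 and 110 TPM in HFD. The lowest HFD value was thus about double the highest ND value, and neither diet's samples were far apart. The mean ± SD was 50.5 ± 1.56 TPM for ND and 107 ± 5.02 TPM for HFD (n = 2 each), with a log2 change of 1.06 in limma (standard error 0.06, adjusted p = 0.00626), larger than the spread within either diet. Without ND replicate 1 or ND replicate 2, the log2 change was 1.03 and 1.09 but the adjusted p-value was 0.167 and 0.161 in limma, and in those fits no gene was a DEG. RefSeq start sites of Il1rn lie in 3 promoter windows, and the values per gene do not separate the transcripts that begin there.

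Il18 encodes a cytokine that is made as an inactive precursor, matured by caspase-1 and known to drive IFN-γ production by T and NK cells. It lies on chromosome 9 (50554700 to 50581841, plus strand). Il18 was at 7.4 and 7.8 TPM in ND and at 4.2 and 4.8 TPM in HFD, approximately 109 and 133 reads against 70.0 and 69.6 reads. Both HFD samples lay below both ND samples, with no overlap. The mean ± SD was 7.60 ± 0.283 TPM for ND and 4.50 ± 0.424 TPM for HFD (n = 2 each), a log2 change of -0.65 in limma (standard error 0.10, adjusted p = 0.0292). Il18 was no longer a DEG without ND replicate 1 (-0.68, adjusted p = 0.212), ND replicate 2 (-0.61, adjusted p = 0.214) or HFD replicate 1 (-0.57, adjusted p = 0.0507) in limma. With all samples, 5 of 11 other settings also ended the call, namely a pseudocount of 5, no filter on low TPM (adjusted p = 0.0537), a replicate block (0.104), quantile normalization (0.0807) and a 2-fold limit. Bco2 and Tex12 overlap Il18 on the other strand but share 0 exon bases with it in GENCODE vM21. Bco2 was at 2.3 and 2.2 TPM in ND and at 0.9 TPM in both HFD samples, so it met the filter on low values through ND only and could be called in no other direction. On the side of lower coordinates, the nearest protein-coding gene, Pts, fell (-0.62).

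Within a sample, the ratio of a pair of genes does not depend on how the library was scaled. The ratio of Il1rn to Il18 was 6.68 and 6.62 in the ND samples and 24.5 and 22.9 in the HFD samples. The pairs of genes compared this way were picked after their values had been seen, so these ratios are a description without a test.

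**Figure D3:**
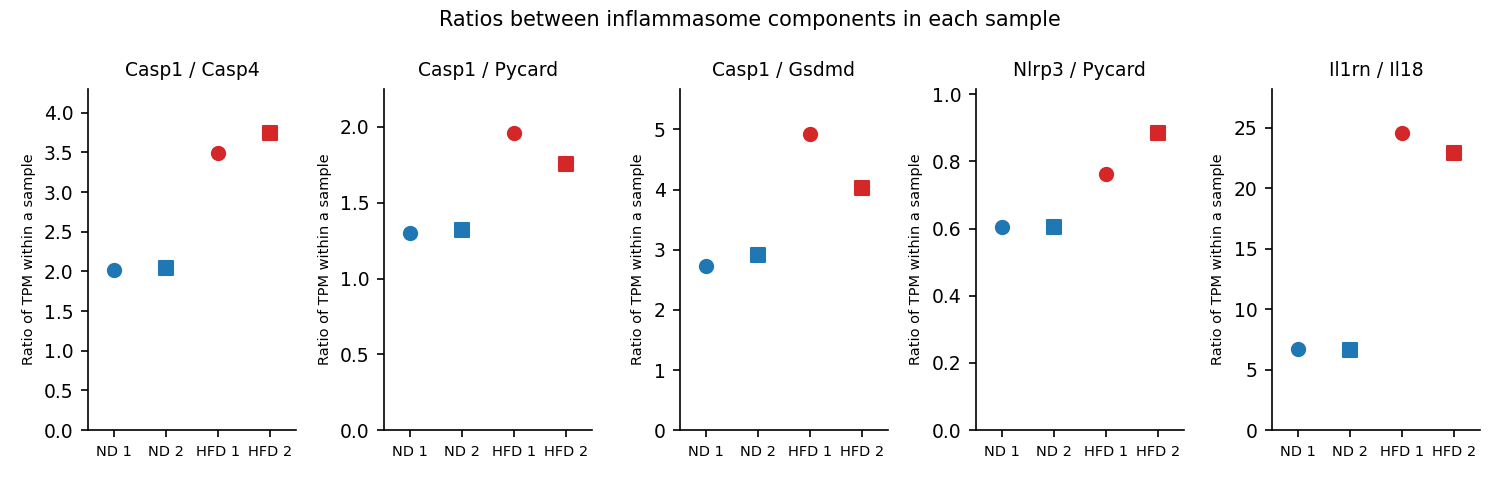
Ratio of TPM between pairs of components within each sample (blue ND, red HFD; each axis starts at 0). In all 5 pairs both HFD samples lie above both ND samples, and the gap is widest for Il1rn over Il18.

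Caspase-1 is the protease of the canonical inflammasome. Casp1, on chromosome 9 (5298517 to 5307281, plus strand), had the highest level of the 10 components in every sample, at 116 and 125 TPM in ND and at 158 and 150 TPM in HFD. Both HFD values lay above both ND values. The mean ± SD was 120 ± 6.36 TPM for ND and 154 ± 5.66 TPM for HFD (n = 2 each), a log2 change of 0.36 in limma (standard error 0.06, adjusted p = 0.0340), which is under 1.5-fold. Casp4, the mouse gene of caspase-11 and the protease of the noncanonical pathway, begins 1568 bases after the end of Casp1 on the same strand (5308849 to 5336791) and went the other way. It was at 57.3 and 60.8 TPM in ND and at 45.3 and 40.2 TPM in HFD, again with no overlap between the diets. The mean ± SD was 59.1 ± 2.47 TPM for ND and 42.8 ± 3.61 TPM for HFD (n = 2 each), a log2 change of -0.46 in limma (standard error 0.08, adjusted p = 0.0386), which is under 1.5-fold. The ratio of Casp1 to Casp4 was 2.02 and 2.05 in ND and 3.49 and 3.74 in HFD. With all samples, some other settings gave both genes adjusted p-values above 0.05 in limma. These were a replicate block (0.109 for Casp1, 0.114 for Casp4), no filter on low TPM (0.0616, 0.0717) and no variance trend (0.0584, 0.0534). Neither gene kept an adjusted p-value under 0.05 when any 1 sample was left out, with values in limma from 0.0748 to 0.213 for Casp1 and from 0.0545 to 0.245 for Casp4.

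Among the 4 sensors of the 10 components, Nlrp3 was by far the most abundant. NLRP3 responds to membrane damage, potassium efflux and crystals, and its gene lies on chromosome 11 (59541569 to 59566955, plus strand). Nlrp3 was at 53.9 and 56.9 TPM in ND and at 61.6 and 75.5 TPM in HFD. All HFD values lay above the ND values, but the HFD samples differed from each other by more (0.29 on the log2 scale) than the closest ND and HFD samples did (0.11). The log2 change was 0.30 (standard error 0.12, 95% confidence interval -0.07 to 0.66, adjusted p = 0.173 in limma) and did not pass the test. Leaving out HFD replicate 1 gave 0.44, and leaving out HFD replicate 2 gave 0.15. The share of Nlrp3 in the summed TPM of the 4 sensors was 82.3% and 82.2% in ND and 86.4% and 89.3% in HFD.

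The other sensors among the components were at a few TPM. Nlrp1b, a sensor gene of the NLR family, was at 5.7 and 5.5 TPM in ND and at 3.8 and 3.5 TPM in HFD, without overlap. Its log2 change was -0.51 (standard error 0.09, adjusted p = 0.0373 in limma), which is under 1.5-fold on the scale of TPM + 1. The adjusted p-value of Nlrp1b in limma was above 0.05 without ND replicate 1 (0.234) or ND replicate 2 (0.212), with a replicate block (0.145), without a filter on low TPM (0.0590) and after quantile normalization (0.0795). Nlrp1b lies on chromosome 11 (71152574 to 71242514, minus strand), and the RefSeq pseudogene Nlrp1c-ps overlaps it and fell from ND levels of 21.8 and 25.9 TPM to HFD levels of 14.3 and 12.1 TPM (log2 change -0.81, adjusted p = 0.0338 in limma). These are close relatives, so reads could be split between them and both values are uncertain. Nlrp1a, the next gene of the cluster, was at 3.2 to 3.4 TPM in the 4 samples (log2 change -0.02, adjusted p = 0.904 in limma).

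NLRC4 is the sensor of bacterial flagellin and secretion systems, which the NAIP proteins recognize. Nlrc4, on chromosome 17 (74426255 to 74459144, minus strand), was at 4.1 and 4.8 TPM in ND and at 4.3 and 4.2 TPM in HFD, so that the HFD values lay between the ND values (log2 change -0.05, 95% confidence interval -0.38 to 0.28, adjusted p = 0.760 in limma). AIM2 binds double-stranded DNA in the cytosol. Aim2, on chromosome 1 (173349547 to 173466040, plus strand), had the lowest level of the 10, at 1.8 and 2.0 TPM in ND and at 1.6 and 1.3 TPM in HFD, or approximately 64.0 to 115 reads. Both HFD values lay below both ND values, yet the log2 change of -0.25 (95% confidence interval -0.61 to 0.12, adjusted p = 0.237 in limma) did not pass the test, and it was -0.16 without HFD replicate 2. The RefSeq model of Aim2 overlaps Cadm3, which was at 5.1 to 9.1 TPM, without shared exon bases in GENCODE vM21. Ackr1, the nearest protein-coding gene before Aim2, encodes a chemokine-binding receptor and fell from 28.5 and 25.4 TPM to 13.3 and 15.7 TPM (log2 change -0.85).

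ASC, the adaptor that links sensors to caspase-1, is encoded by Pycard on chromosome 7 (127991373 to 127993867, minus strand). Pycard was at 89.0 and 94.2 TPM in ND and at 80.9 and 85.5 TPM in HFD (log2 change -0.14, 95% confidence interval -0.31 to 0.04, adjusted p = 0.181 in limma). Of its exon bases in GENCODE vM21, 485 (12.8%) are shared with Gm45205 on the other strand, and reads of both could be mixed if they were counted without strand. Gsdmd, the gene of the pore protein gasdermin D on chromosome 15 (75862144 to 75867408, plus strand), was at 42.2 and 42.7 TPM in ND and at 32.1 and 37.4 TPM in HFD (log2 change -0.29, 95% confidence interval -0.57 to -0.002, adjusted p = 0.117 in limma). Leaving out HFD replicate 1 gave Gsdmd a log2 change of -0.18 (adjusted p = 0.0848 in limma), and leaving out HFD replicate 2 gave -0.39 (adjusted p = 0.0362). Neither gene overlapped between the diets, and neither passed the test. Relative to Pycard, Casp1 was at 1.30 and 1.32 in ND and at 1.96 and 1.76 in HFD, and Nlrp3 was at 0.606 and 0.604 in ND and 0.761 and 0.883 in HFD. The ratio of Casp1 to Gsdmd was 2.74 and 2.92 in ND and 4.93 and 4.02 in HFD. In each of these ratios the ND samples were close to each other, the HFD samples were further apart, and the diets did not overlap.

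The other genes of the pathway were taken from a list of 52 genes grouped by role, of which 50 passed the filter. Of these 50, 18 fell (36.0%, against 10.3% of all genes tested), 1 rose (against 8.08%) and 31 did not pass both thresholds, with a median log2 change of -0.36. Among the 18, Naip1 and Il18r1 met the filter on low values through ND only, so that a fall was the only change that could be called, and 16 of 48 were lower without such genes, a count added after the values were seen (against 8.8% of all genes counted the same way). With a replicate block, 6 genes of the list were lower and 0 higher, so that Nlrp10 was no longer a DEG. Over all 16849 genes tested, that fit had 405 lower and 407 higher. Without ND replicate 1 or ND replicate 2, 1 ND sample was left, so those fits cannot decide which genes of the list were DEGs. The counts describe these libraries, in which the markers of lymphocytes and resident macrophages were also lower in HFD, and the part of these cells in the list was not tested.

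**Figure D4:**
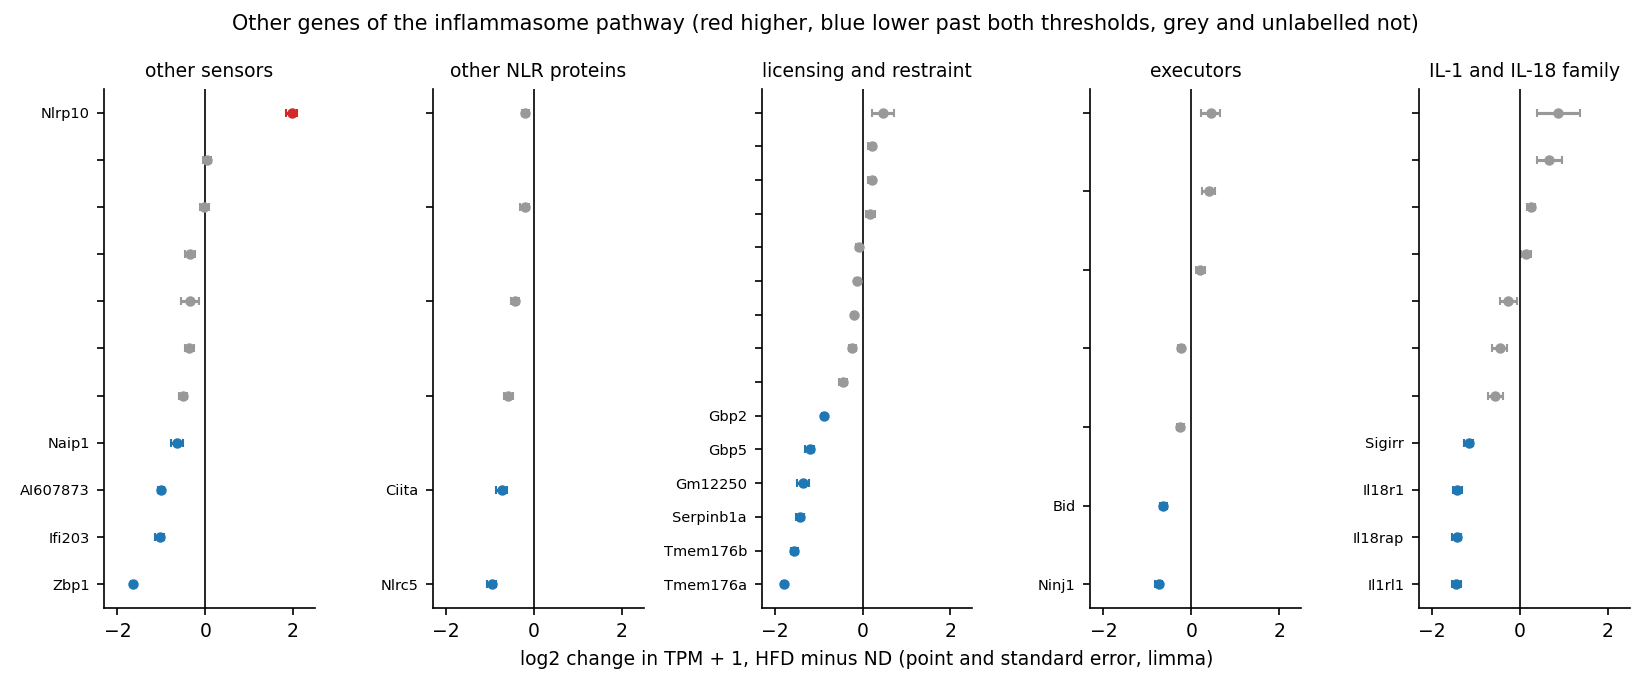
Log2 change with HFD of the 50 tested genes of the wider pathway, by role, with the standard error from limma; red and blue points passed both thresholds and are named, and grey points did not. The 1 gene higher in HFD is Nlrp10, and 18 are lower, from -0.64 to -1.79.

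Among the other sensors, Nlrp10, an NLR gene whose protein lacks the leucine-rich repeats of its relatives, rose from ND levels of 1.7 and 1.9 TPM to HFD levels of 10.9 and 9.1 TPM (log2 change 1.97, adjusted p = 0.00761 in limma). Zbp1, a sensor of Z-form nucleic acids upstream of cell death, fell from 38.1 and 38.7 TPM to 11.5 and 11.7 TPM (log2 change -1.64). Among the relatives of Aim2 in the interferon-inducible p200 family, Ifi203 fell with a log2 change of -1.04. AI607873, the symbol in the files for Ifi207, fell from 121 and 130 TPM to 64.4 and 60.4 TPM. Naip1, a partner of NLRC4, was at 1.3 and 1.7 TPM in ND and at 0.6 TPM in both HFD samples (log2 change -0.64), with near-identical relatives among which reads could be split. The other 6 tested sensors were not DEGs. Of these 11 sensors, 4 fell and 1 rose, against 10.3% and 8.08% of all genes tested. Of 6 other NLR genes, Nlrc5 and Ciita, the transactivators of MHC class I and class II genes, fell by 0.96 and 0.74 on the log2 scale. The other 4 were lower without passing both thresholds. In all 6, both HFD values lay below both ND values, as in 32.8% of all genes tested.

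Of 15 genes that license or restrain inflammasomes, 6 fell and none rose, against 10.3% and 8.08% of all genes tested. The interferon-inducible GTPases Gbp2, Gbp5 and Gm12250 (also called Irgb10), which open bacteria and vacuoles to the noncanonical pathway, had log2 changes of -0.88, -1.20 and -1.36. Gbp5 was at 26.0 and 29.6 TPM in ND and at 12.1 and 10.9 TPM in HFD. Genes of proteins that restrain the pathway were among those that fell, namely Tmem176a (-1.79), Tmem176b (-1.56) and Serpinb1a (-1.43). Tmem176a was at 371 and 383 TPM in ND and at 105 and 112 TPM in HFD, with the diets far apart. Beside them, 8 dendritic cell markers summed to 687 and 711 TPM in ND and to 181 and 189 TPM in HFD (3 fell, 5 were not DEGs). Most of each sum came from Cd209a and Batf3. Cd209a was at 367 and 393 TPM in ND and at 65.0 and 58.0 TPM in HFD. Batf3 was at 248 and 244 TPM in ND and at 82.3 and 71.8 TPM in HFD. The part of dendritic cells in these changes was not tested.

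Of 7 genes of the execution phase, Ninj1, whose protein ruptures the plasma membrane after gasdermin pores form, fell from ND levels of 1038 and 1005 TPM to HFD levels of 571 and 655 TPM (log2 change -0.74, adjusted p = 0.0164 in limma). Bid, a substrate of caspase-8 in apoptosis, fell by 0.64 on the log2 scale, and the other 5 were not DEGs. Thus 2 of the 7 fell and none rose, against 10.3% and 8.08% of all genes tested.

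Of 11 ligands and receptors of the IL-1 and IL-18 family, 4 fell and none rose, against 10.3% and 8.08% of all genes tested. Both chains of the IL-18 receptor were among them. Il18rap fell from 6.3 and 7.2 TPM to 1.9 and 1.8 TPM (log2 change -1.44, adjusted p = 0.00909 in limma). Il18r1, which met the filter through ND only, was at 3.3 TPM in both ND samples and at 0.6 TPM in both HFD samples (log2 change -1.43). Sigirr, an inhibitory receptor of the family, and Il1rl1, the receptor for IL-33, fell by 1.17 and 1.45 on the log2 scale. Beside the fall of the IL-18 receptor genes, the 6 NK cell markers summed to 201 and 207 TPM in ND and to 43.0 and 36.9 TPM in HFD, and the 6 T cell markers to 137 and 147 TPM against 17.0 and 31.8 TPM. Beside Il1rl1, the 6 mast cell markers summed to 1566 and 1584 TPM in ND and to 381 and 488 TPM in HFD. The part of these cell types in the receptor genes was not tested.

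Without HFD replicate 1, which had the highest sum of spermatid markers, Il1rn was a DEG (1.11, adjusted p = 0.0326 in limma), and Il18 was the component that dropped below the thresholds. In that fit the wider list had 16 genes lower and 4 higher, and all 16849 genes tested had 1691 lower and 1360 higher. Without HFD replicate 2, the DEGs among the components were again Il18 and Il1rn, and the wider list had 19 lower and 1 higher. Over all genes that fit had 1582 lower and 2650 higher, so 62.6% of its calls were higher, against 43.9% with all samples. Both fits take the spread from the ND samples alone, which were closer to each other (1.44 times the counting error) than the HFD samples (3.16 times). The fits without 1 of the ND samples are described above for Il1rn and the list.

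**Figure D5:**
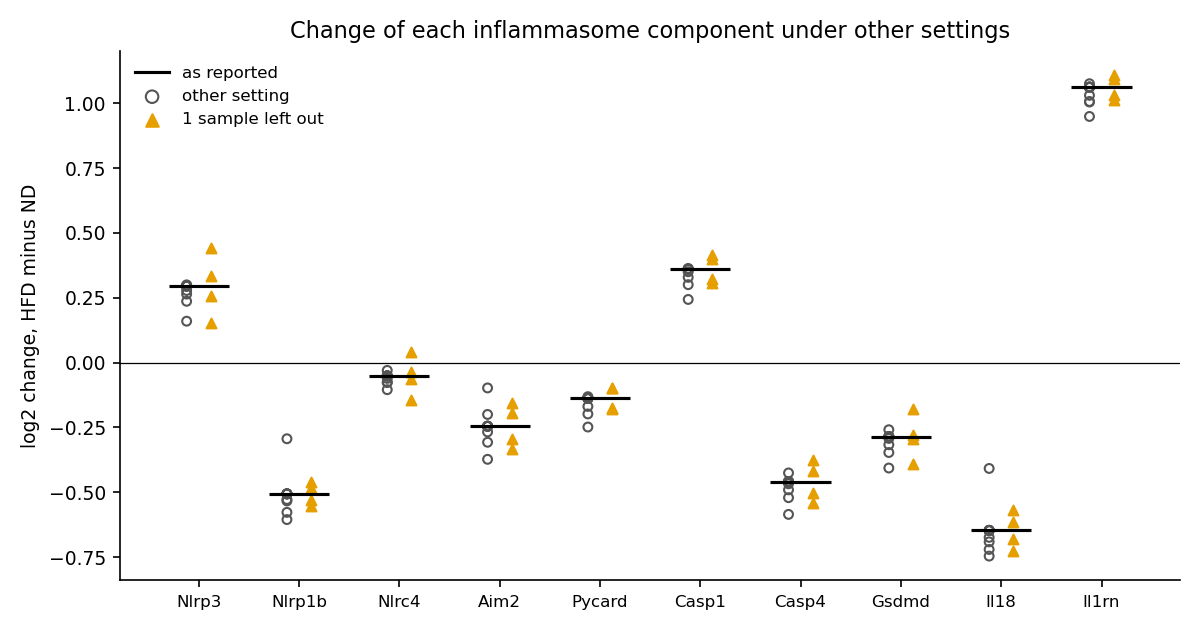
Log2 change of each component as reported (line), under other settings (open circles) and with 1 sample left out (triangles). The direction of every component but Nlrc4 is the same in each fit, and Il1rn lies between 0.95 and 1.11.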

How the data were processed

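The 10 genes and the gene lists were chosen with earlier results of these data known. Per the labels and the methods, the authors trimmed reads with Trim Galore 0.4.2 and cutadapt 1.9.1, aligned them to mm10 with STAR 2.6.1e, removed duplicates with Sambamba, counted them with featureCounts 1.6.2 and deposited TPM, printed to 1 decimal. The gene annotation and the use of strand in counting are not given in the sources used here. The 4 TPM columns were joined by symbol, with 2 list genes matched through older symbols. Genes with at least 1 TPM in at least 2 samples (16849) were compared as log2(TPM + 1) with limma 3.58.1 in R 4.3.3 (lmFit, eBayes with a variance trend) and Benjamini-Hochberg adjustment over all of them. The thresholds for DEGs were 0.05 (adjusted p-value) and 1.5 (fold change). TPM are not counts, so no count model was used, and TPM are shares, so a gene can fall because others rose. The fit was tested on simulated data.

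The TPM of 1 read per kb, 0.0606 to 0.0711, was read from 220 to 267 microRNA genes per sample, and read numbers use GENCODE vM21 exon lengths. Replicates differed by 1.44 (ND) and 3.16 (HFD) times the counting error, so each library was kept as 1 sample. Named were the 10 components, every called gene of the wider list, and, of the genes with values in the files, those nearest to a component where called and those overlapping one. Gm45205, the genes named for family relation (Nlrp1a) and the changes of Il1a and Il1b were added after values were seen. Alternatives were pseudocounts of 0.1 and 5, no filter or a mean of at least 5 TPM, quantile normalization, median-ratio scaling, a rescaling that leaves out the 50 most abundant genes, a block for the replicate number, no variance trend, other fold limits and each sample left out. Positions and promoters are from RefSeq for GRCm38.p6. Figures were drawn with matplotlib 3.10.9.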

Additional observations from a re-analysis of the deposited data

How the results depend on the processing

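Across 147 fits of the 10 components under 15 alternatives, 131 kept the direction and the side of the thresholds. Il1rn stayed a DEG under all 11 alternatives that keep the 4 samples (0.95 to 1.08, adjusted p from 0.00339 to 0.0449 in limma) and ran from 1.01 to 1.11 with 1 sample left out. Il18 was no longer a DEG with a pseudocount of 5 (-0.41), without a filter (-0.65, adjusted p = 0.0537), with the replicate block (-0.65, adjusted p = 0.104), after quantile normalization (-0.69, adjusted p = 0.0807) and with a 2-fold limit (-0.65), and it ran from -0.73 to -0.57 with 1 sample left out. Nlrp1b became a DEG with a pseudocount of 0.1 (-0.61), and Casp4 after quantile normalization (-0.59). Without a fold limit, Nlrp1b (-0.51), Casp1 (0.36) and Casp4 (-0.46) were called too, which makes 5 components. The direction turned in 1 fit, for Nlrc4 without ND replicate 2 (0.042, and down to -0.14 with another sample left out).

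The number of components called was 2 as reported and 1 under the 2-fold limit, the replicate block, no filter or the pseudocount of 5. Under the pseudocount of 0.1 it was 3. It ran from 0 to 2 with 1 sample left out. DEGs over all genes numbered 3097, and 2015 with a pseudocount of 5, 1602 with a 2-fold limit and 812 with the replicate block, and from 0 to 4232 with 1 sample left out. The wider list had 19 DEGs, 12 with a 2-fold limit, 6 with the replicate block and 0 to 20 with 1 sample left out. The counts of 0 arose in limma without either ND sample, where 3862 and 4024 genes had an unadjusted p under 0.05, among them 3 and 2 of the components. In fits with 1 sample left out, the lone sample is assumed to vary like those of the other diet, and the cause was not tested for the other shifts. The labels give both diets replicate numbers 1 and 2, but deviations from the diet means were not shared by equal numbers (correlation -0.015), so the numbers were not taken as pairs. The scalings moved the median change of all genes by less than 0.1, but quantile normalization took Nlrp3 from 0.30 to 0.16 and Pycard from -0.14 to -0.25, neither a DEG in either fit. Depth limits Aim2, Nlrc4, Nlrp1b and Il18 most.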

Other observations

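Both IL-33 and the signaling IL-1 receptor have genes that did not pass the test but differed within HFD, and they were singled out after their values had been seen. Il33 was at 1.0 and 1.2 TPM in ND and reached 1.5 TPM in replicate 1 and 4.9 TPM in replicate 2 of HFD (log2 change 0.87, adjusted p = 0.278 in limma). Il1r1 was at 0.9 and 1.1 TPM in ND and reached 1.5 TPM in replicate 1 and 3.0 TPM in replicate 2 of HFD (log2 change 0.66, adjusted p = 0.182 in limma). The 7 fibroblast markers summed to 3032 TPM in replicate 1 and 6064 TPM in replicate 2 of HFD, and their part in both genes was not tested.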
